A study of Mus musculus with 7 samples.

Results

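The interferon response genes described here are 39 genes, taken by symbol from a fixed list and all found among the 23366 rows of the liver expression tables. They fall into 5 roles: 20 type I effectors, 4 genes of cytosolic RNA sensing, 6 transcription factors, 6 GTPases induced by interferon-gamma, and 3 genes of the PARP and DTX3L group. Interferons are secreted proteins that warn cells of infection. Type I interferons act through the receptor of Ifnar1 and Ifnar2 and a complex that holds Stat2 and Irf9 and binds an interferon-stimulated response element (ISRE). Interferon-gamma acts through Ifngr1 and Ifngr2, and its target genes often carry a gamma-activated site (GAS). Irf7, itself induced, amplifies the type I arm, while Usp18 restrains it. In the liver, hepatocytes and Kupffer cells (the resident macrophages) both respond to interferons.

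RNA of whole livers from C57BL/6 mice, a common inbred strain, was sequenced at 3 months (n = 4) and at 21 months (n = 3). The comparison asks which transcripts differ between young adult and old livers; the labels name no treatment or genotype beyond the strain, and give no sex, cage or time of sampling. Whether each sample is a different mouse is not stated, so the p-values rest on sample-to-sample spread that may be partly technical. Libraries held 4724687 to 11143125 estimated counts, of which the ribosomal precursor row Rn45s took 18.7% to 25.6%. The 39 genes together held 3169 to 9582 counts per library. The 6 hepatocyte markers examined, among them Alb and Ttr, summed to 48155 to 69728 scaled counts per 1000000 (CPM), so the liver label held in every library.

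Of the 39 genes, 36 had enough counts to be tested. By edgeR's quasi-likelihood test, adjusted over all 11251 genes tested, 3 of them were higher at 21 months: the effector Oasl1, the transcription factor Irf7 and the GTPase Irgm2. Over all genes tested, 5.47% were higher and 5.86% lower by the same rule. None of the 36 was lower by edgeR, by DESeq2 or by limma on TPM, and none had an unadjusted edgeR p under 0.05 in that direction. At an unadjusted p under 0.05, 8 of the 36 were higher, against 12.7% of all genes tested. The 39 genes were chosen with earlier results of these data known, so their shares are not independent of those results. The median log2 fold change (21 months minus 3 months) was 0.24 over the 36 genes and -0.00 over all genes tested, and 25 of the 36 values were above 0. By role, the median was 0.16 for the 17 tested effectors, 0.28 for the 4 sensing genes, 0.32 for the 6 transcription factors, 0.38 for the 6 GTPases and 0.14 for the 3 PARP and DTX3L genes. Without 21-month replicate 1 these medians were 0.03, 0.11, 0.32, 0.19 and 0.02, and that of the 36 genes was 0.10. Without 21-month replicate 2 the median was 0.18 for the transcription factors, 0.58 for the GTPases and 0.21 for the PARP and DTX3L genes. That of the effectors was 0.33 without 3-month replicate 2 and 0.06 with the replicate number as a block.

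**Figure D1:**
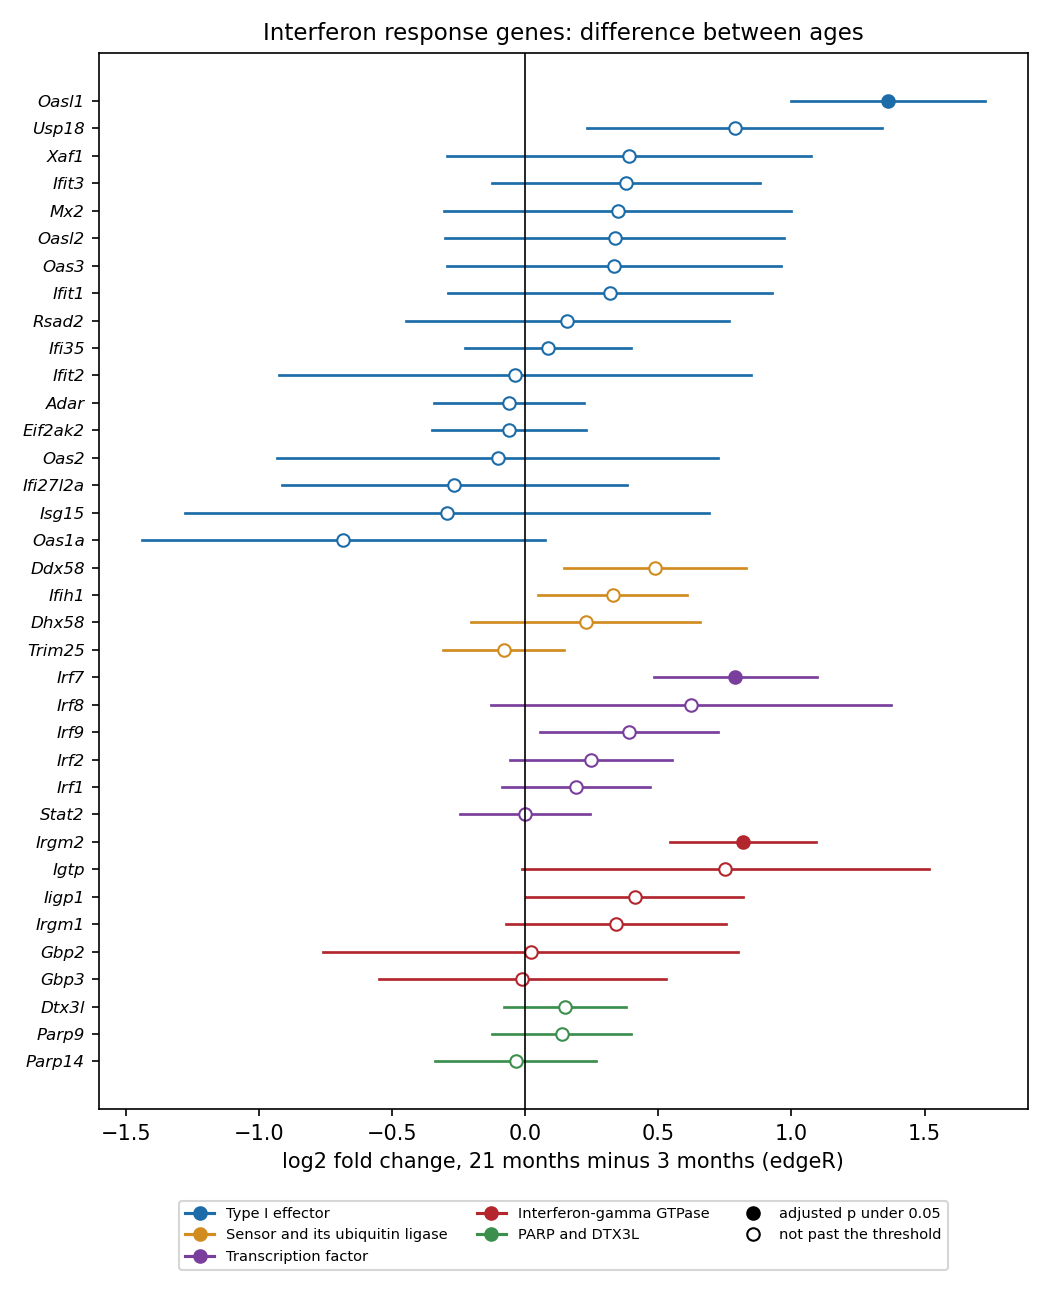
Log2 fold change, 21 months minus 3 months, of the 36 tested interferon response genes (points) with approximate 95% intervals (lines), grouped and coloured by role. Filled points mark Oasl1, Irf7 and Irgm2, the genes with an adjusted p under 0.05; the intervals of most other genes include 0.

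Oasl1, a member of the oligoadenylate synthetase-like family that restrains the translation of Irf7, had the largest fold change of the 36. In the young livers, replicates 1 to 4, Oasl1 had 13.9, 10.7, 9.51 and 8.28 CPM, and in the old livers, replicates 1 to 3, it had 32.7, 22.5 and 26.2 CPM. Every 21-month library lay above every 3-month library. The log2 fold change was 1.36 ± 0.17 (SE), a 2.57-fold rise (edgeR adjusted p = 0.000444).

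Irf7, the transcription factor that drives interferon-alpha genes and is itself induced by interferon, stood at 29.6, 31.3, 23.3 and 30.3 CPM at 3 months and at 60.6, 39.9 and 48.3 CPM at 21 months. The ages did not overlap, and 21-month replicate 1 was the highest library for Irf7 as for Oasl1. Its log2 fold change was 0.79 ± 0.14 (SE), a 1.73-fold rise (edgeR adjusted p = 0.00335). Groups without overlap in this direction were found for 6 of the 36 genes, against 11.3% of all genes tested; the others were Usp18, Ddx58 and Ifih1, which did not pass the adjusted test, and Irgm2.

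**Figure D2:**
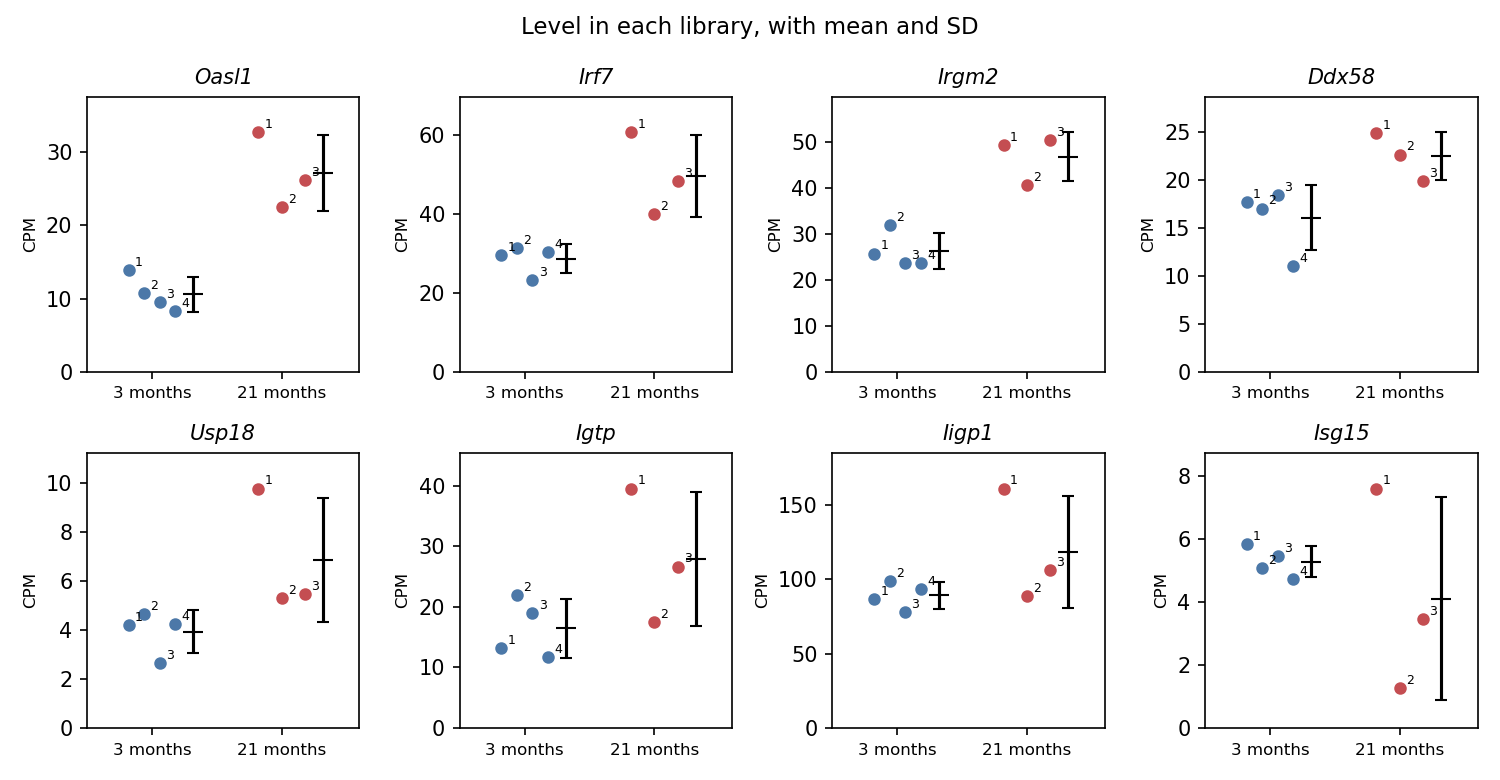
CPM of 8 interferon response genes in each library (points, numbered by replicate; blue at 3 months, red at 21 months), with the mean and SD of each age beside them (n = 4 and n = 3). In the panels of Oasl1, Irf7, Irgm2, Ddx58 and Usp18 the ages separate. In every panel but that of Irgm2, 21-month replicate 1 is the highest library.

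The other transcription factors differed less or varied more between old livers. Irf9, the DNA-binding part of the type I complex, stood at 19.5, 20.6, 23.1 and 21.3 CPM at 3 months and at 33.2, 19.6 and 29.5 CPM at 21 months. The level of Irf9 in 21-month replicate 2 lay within the range of the young livers (log2 fold change 0.39 ± 0.16 SE; edgeR adjusted p = 0.123). Its partner Stat2 had a log2 fold change of -0.00, with an interval of -0.25 to 0.24. Irf1, an activator induced by interferon-gamma, and Irf2, its repressive relative, had log2 fold changes of 0.19 and 0.25 (edgeR adjusted p = 0.381 and 0.294).

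Irf8, a factor of macrophages and dendritic cells, behaved differently across the old libraries. It stood at 3.10, 5.66, 5.06 and 3.41 CPM at 3 months and at 3.65, 10.6 and 6.66 CPM at 21 months, so replicate 2, low for Irf7 and Irf9, was the highest for Irf8. The Irf8 test did not pass with all libraries (log2 fold change 0.62; edgeR adjusted p = 0.278). Without 21-month replicate 1 it did (log2 fold change 0.94; edgeR adjusted p = 0.0228). Kupffer cell and macrophage markers were ordered the same way in the old livers, with sums of 115, 361 and 268 CPM in replicates 1, 2 and 3; their part in the values of Irf8 was not tested.

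Irgm2 is an immunity-related GTPase, a family that guards against vacuolar pathogens. It stood at 25.7, 32.003, 23.7 and 23.7 CPM at 3 months and at 49.3, 40.6 and 50.4 CPM at 21 months, with no overlap. The log2 fold change was 0.82 ± 0.13 (SE), a 1.76-fold rise (edgeR adjusted p = 0.00132). Irgm2, Irgm1 and Igtp are related genes, and expectation-based counting can split reads between copies, so single values of the family carry that uncertainty.

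Igtp, which lies near Irgm2 on chromosome 11, stood at 13.1, 21.9, 19.01 and 11.7 CPM at 3 months and at 39.5, 17.5 and 26.6 CPM at 21 months. Replicates 1 and 3 of the old livers lay above all young ones, while replicate 2 lay among them (log2 fold change 0.75 ± 0.32 SE; edgeR adjusted p = 0.195). Iigp1, an effector GTPase that coats pathogen vacuoles, showed the same order, with 86.5, 98.8, 78.1 and 93.5 CPM at 3 months and 161, 89.0 and 106 CPM at 21 months. Irgm1, a regulator of the family, had 34.2 to 38.8 CPM at 3 months and 60.7, 30.7 and 43.6 CPM at 21 months. Neither gene passed (edgeR adjusted p = 0.185 for Iigp1 and 0.279 for Irgm1). Without 21-month replicate 2 the number of the 39 genes called higher went from 3 to 8 (5.84% of all genes tested were higher in that fit), and the genes added were Igtp, Iigp1, Irgm1, Irf9 and Usp18 (edgeR adjusted p = 0.0488, 0.0287, 0.0153, 0.00800 and 0.0369). By DESeq2 with all libraries, Igtp also passed (DESeq2 adjusted p = 0.0341).

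The guanylate-binding proteins Gbp2 and Gbp3, large GTPases that attack pathogen membranes, had few counts, at 3.10 ± 1.14 and 3.54 ± 0.658 CPM at 3 months (SD, n = 4). At 21 months they stood at 3.23 ± 1.54 and 3.57 ± 0.749 CPM (SD, n = 3). Their log2 fold changes were 0.02 and -0.01, with intervals of -0.76 to 0.80 and -0.55 to 0.53.

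Promoters of the family are shown because Irgm2 and Igtp hold the same pair of motifs at the same spacing, while Oasl1 and Irf7 hold neither in this window; of these 4 genes, Igtp did not pass the test between ages. The sequences are the 130 bases before each annotated start, from RefSeq on GRCm38.p6 (the expression tables were made on mm9), 5′ to 3′ on the gene's strand. Capitals mark matches on either strand to the core of an ISRE, which is GAAA, any 2 bases and GAAA, or to TTCNNNGAA, a GAS core. Irgm2 lies at chr11:58214847-58214976 on the plus strand, Igtp at chr11:58199426-58199555 (plus), Irgm1 at chr11:48871421-48871550 (minus), Isg15 at chr4:156200819-156200948 (minus), Oasl1 at chr5:114923110-114923239 (plus) and Irf7 at chr7:141266425-141266554 (minus).
Irgm2: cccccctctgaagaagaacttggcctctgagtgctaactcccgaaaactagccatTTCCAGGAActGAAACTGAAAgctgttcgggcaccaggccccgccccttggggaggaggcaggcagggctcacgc
Igtp: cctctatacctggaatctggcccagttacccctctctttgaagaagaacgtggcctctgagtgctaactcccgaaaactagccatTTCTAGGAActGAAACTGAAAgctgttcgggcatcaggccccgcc
Irgm1: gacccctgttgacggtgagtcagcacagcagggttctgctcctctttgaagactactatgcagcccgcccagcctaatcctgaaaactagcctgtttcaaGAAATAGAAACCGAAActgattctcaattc
Isg15: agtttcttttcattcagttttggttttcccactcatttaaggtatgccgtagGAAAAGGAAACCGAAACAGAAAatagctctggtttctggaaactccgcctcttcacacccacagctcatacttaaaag
Oasl1: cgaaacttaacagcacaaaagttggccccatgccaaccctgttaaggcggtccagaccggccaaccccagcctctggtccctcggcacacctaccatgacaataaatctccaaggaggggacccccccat
Irf7: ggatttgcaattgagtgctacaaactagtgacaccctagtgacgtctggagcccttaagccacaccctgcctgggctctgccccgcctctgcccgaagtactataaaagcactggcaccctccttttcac

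In Irgm2 the GAS core began 75 bases and the ISRE core 64 bases before the start, and in Igtp 45 and 34 bases, so 2 bases separate the cores in both. Irgm1 held 2 overlapping ISRE cores and no GAS core. Isg15 held 3 overlapping ISRE cores, 78 to 66 bases before the start. Oasl1 and Irf7 held no match to either motif within 250 bases before to 50 after their starts, which says only that these letters are not in that window. Promoter windows were found for 30 of the 39 genes. An ISRE core was in 17 of the 30, against 3.99% of the 27025 genes with a window, and a GAS core in 10, against 9.55%. The ISRE cores may overlap each other, as in Isg15, and a match describes the sequence, not binding.

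Among the type I effectors, Oasl1 was the only one of the 17 tested that passed. Usp18, the protease that removes Isg15 from proteins and damps the receptor, stood at 4.20, 4.63, 2.63 and 4.22 CPM at 3 months and at 9.76, 5.31 and 5.47 CPM at 21 months. The ages did not overlap for Usp18, but the test did not pass (log2 fold change 0.79 ± 0.26 SE; edgeR adjusted p = 0.0634). By limma on log2(TPM + 1) it did (limma adjusted p = 0.0369).

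Isg15, the ubiquitin-like modifier that is among the most strongly induced genes of the response, varied most between old livers. It stood at 5.84, 5.06, 5.46 and 4.71 CPM in the young livers and at 7.59, 1.26 and 3.45 CPM in the old. One old library lay above all young ones and 2 lay below. The Isg15 log2 fold change was -0.29 with an interval of -1.28 to 0.69 (edgeR adjusted p = 0.730). Without 21-month replicate 1 Isg15 was called lower (log2 fold change -1.11; edgeR adjusted p = 0.0277), and without replicate 2 the value was 0.12. Some enzymes that attach Isg15 to proteins lie outside the 39 genes. Among these, the ligase Herc6 overlapped between ages and was not called (log2 fold change 0.26 ± 0.21 SE, edgeR adjusted p = 0.460). Uba7, the activating enzyme, stood at 7.58 ± 1.38 CPM in the young livers and at 11.3 ± 0.661 CPM in the old. It was called higher (edgeR adjusted p = 0.0417), but not with the replicate number as a block (edgeR adjusted p = 0.107). The conjugating enzyme Ube2l6 rose from 36.7 ± 4.96 to 50.8 ± 9.33 CPM (edgeR adjusted p = 0.0347). Leaving out any of 3-month replicates 2, 3 and 4 ended both calls, as did leaving out 21-month replicate 2 or 3 for Uba7 and replicate 1 for Ube2l6; over all alternatives (edgeR, DESeq2 or limma) the adjusted p reached 0.172 and 0.103.

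Ifit1, Ifit2 and Ifit3, which bind foreign RNA and block its translation, did not pass (edgeR adjusted p = 0.522, 0.973 and 0.332). Ifit1 stood at 3.90 to 5.26 CPM in the young livers and at 9.36, 4.19 and 4.16 CPM in the old, where replicate 1 again stood above all others. The oligoadenylate synthetases, which make the activator of a viral RNA nuclease, had few counts: Oas1a, Oas2 and Oas3 had means of 2.55, 1.31 and 2.96 CPM at 3 months and 1.601, 1.28 and 3.94 CPM at 21 months. Oas1a had the lowest fold change of the 36 (log2 fold change -0.68 ± 0.36 SE; edgeR adjusted p = 0.237), with 0.985 CPM in 21-month replicate 1. Oasl2, the relative of Oasl1, had a log2 fold change of 0.34 ± 0.30 (SE; edgeR adjusted p = 0.517); its difference from Oasl1, with which it may share reads, was not tested. Oas1a and Oas1g are near copies that can share reads.

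Rsad2, which encodes viperin, an enzyme that makes a chain-terminating nucleotide, stood at 9.31, 4.12, 5.66 and 5.52 CPM at 3 months and at 8.87, 4.75 and 6.07 CPM at 21 months, and the ages overlapped. Mx2, an antiviral GTPase, stood at 2.55 to 3.57 CPM at 3 months and at 5.12, 1.96 and 4.04 CPM at 21 months. Ifi35, Eif2ak2 (the RNA-activated kinase PKR) and Adar (an RNA-editing deaminase) were the steadiest effectors, with log2 fold changes of 0.09, -0.06 and -0.06 and intervals of -0.23 to 0.40, -0.35 to 0.23 and -0.34 to 0.22. Xaf1, which promotes cell death, and Ifi27l2a had values of 0.39 and -0.27 (edgeR adjusted p = 0.482 and 0.628). Mx1, Oas1g and Ifi44 were too low to test, with 16, 21 and 21 counts over the 4 young libraries and 9, 15 and 26 over the 3 old ones.

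None of the 4 genes of RNA sensing passed by edgeR, DESeq2 or limma on TPM, and 2 had an unadjusted edgeR p under 0.05, Ddx58 and Ifih1. Ddx58, which encodes RIG-I, stood at 17.7, 17.0, 18.4 and 11.04 CPM at 3 months and at 24.8, 22.6 and 19.9 CPM at 21 months, a log2 fold change of 0.49 ± 0.16 (SE; edgeR adjusted p = 0.0611). Ifih1, the sensor of long double-stranded RNA, stood at 17.5, 18.8, 16.2 and 18.5 CPM at 3 months and at 26.3, 20.4 and 20.2 CPM at 21 months. Its edgeR log2 fold change was 0.33 ± 0.13 (SE), with an adjusted p of 0.122. Both genes separated the ages in every library without passing the adjusted threshold. Dhx58, a regulator of those sensors, overlapped (log2 fold change 0.23; edgeR adjusted p = 0.517). Trim25, the ubiquitin ligase that acts with RIG-I, stood at 90.05 ± 8.11 CPM at 3 months and 85.2 ± 9.28 CPM at 21 months (SD, n = 4 and 3; log2 fold change -0.08, interval -0.31 to 0.15).

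Parp9 and Dtx3l, which form a complex of a PARP protein and a ubiquitin ligase, had log2 fold changes of 0.14 and 0.15 (edgeR adjusted p = 0.520 and 0.410). Parp14, an ADP-ribosyltransferase, had -0.04, with an interval of -0.34 to 0.27. The 3 genes had 18.8 to 47.2 CPM in the young livers and 22.2 to 52.4 CPM in the old, and their ages overlapped.

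**Figure D3:**
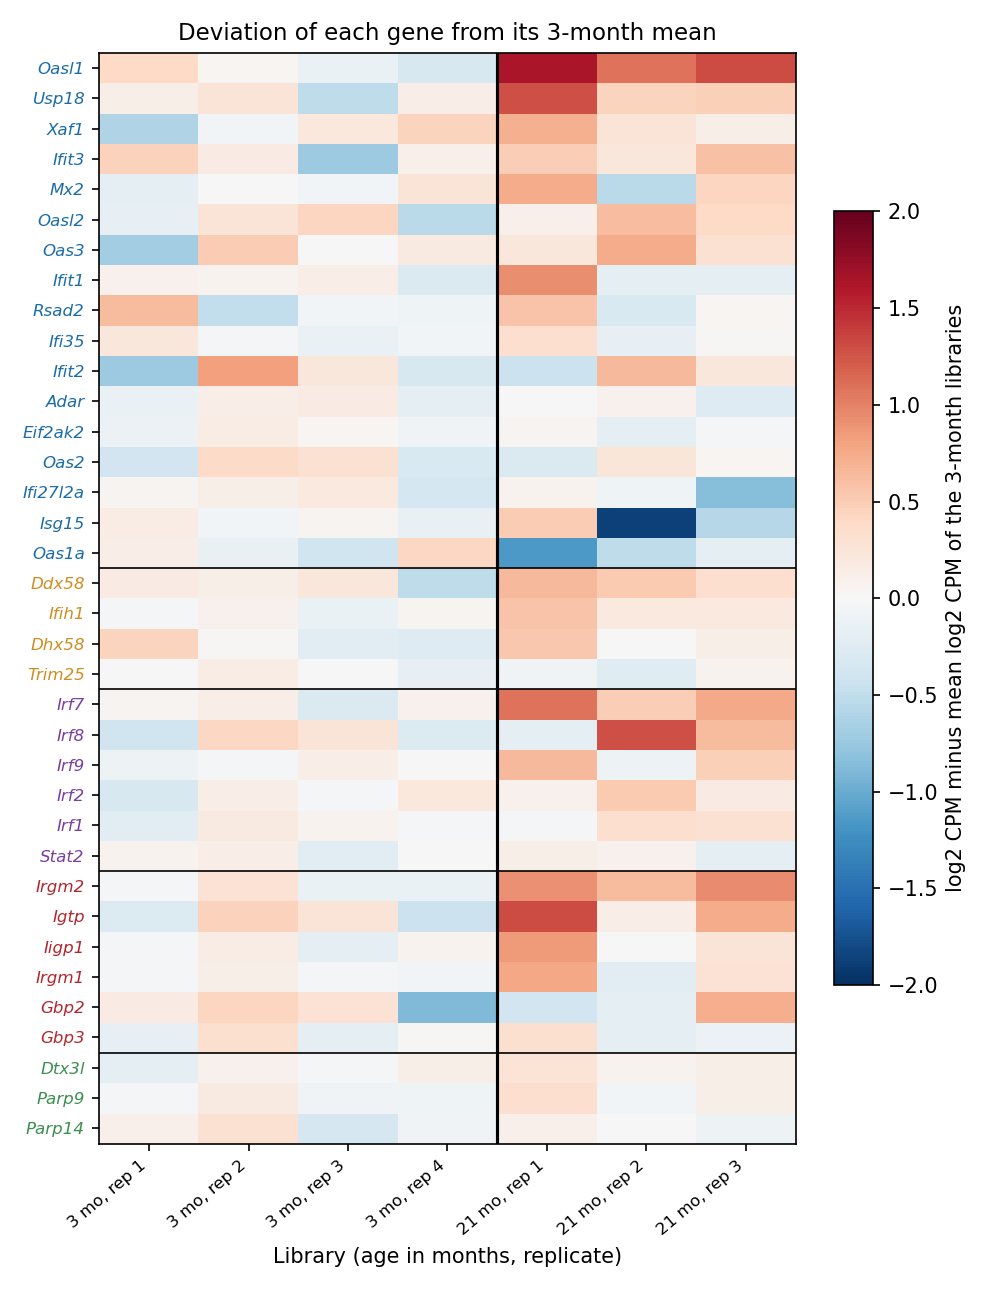
Log2 CPM of the 36 tested genes (rows, grouped and coloured by role) in the 7 libraries (columns), as the difference from the gene's mean over the 3-month libraries; red is higher and blue lower. Rows of Oasl1, Irf7 and Irgm2 are red in all 3 old libraries, as are others such as Usp18 and Ddx58. Isg15 in 21-month replicate 2 is the darkest blue.

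The old livers differed among themselves. Of the 36 genes, 23 (63.9%) had their highest old value in 21-month replicate 1, the place of the highest value for 38.6% of all genes tested. Replicate 2 held the lowest old value for 19 of the 36 (52.8%), against 35.3% of all genes tested. The median deviation from the 3-month mean over the 36 genes was 0.34, 0.08 and 0.18 on the log2 scale in 21-month replicates 1, 2 and 3, and -0.07 to 0.14 in the young libraries. The GTPases varied most, with medians of 0.81, -0.09 and 0.51 in the same order. The transcription factors had 0.10, 0.41 and 0.39.

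Markers of other cell types also differed between libraries and, for some lists, between ages. Fewer cells of a type and less RNA per cell cannot be told apart in whole liver. The 8 Kupffer cell and macrophage markers found, all tested, none called by edgeR, DESeq2 or limma on TPM and none with an unadjusted edgeR p under 0.05, summed to 197 to 331 CPM in the young livers, and 21-month replicate 1 had the lowest sum of the 7 libraries, 115 CPM. The 6 sinusoidal endothelial markers (1 lower, Lyve1) summed to 117 to 201 CPM in the young and to 82.6, 182 and 177 CPM in the old. The same library, 21-month replicate 1, was the highest of the 7 for 17 of the 36 interferon response genes. The share of all genes tested that were highest of the 7 there was not taken. The 6 B and plasma cell markers found, of which 2 could be tested and Igj was called higher, summed to 2.92 to 3.64 CPM in the young and to 8.47, 39.4 and 9.39 CPM in the old. The 9 T and NK cell markers summed to 2.83 to 4.56 CPM in the young and 3.45 to 7.40 CPM in the old. Of them, Cd4 alone could be tested by edgeR and did not pass, with 60 counts over the young and 29 over the old libraries. Cd3e, Cd3g, Cd8a and Nkg7 stood higher in every old library than in any young one. So did 11.3% of all genes tested, a set that excludes these low genes. They had 6, 1, 8 and 5 counts over the young and 22, 13, 17 and 17 over the old. Cd3d overlapped, with 5 and 15 counts. Klrb1c and Gzmb overlapped too, and had fewer counts in the old (6 and 8 over the young, 2 and 6 over the old). Limma on TPM tested Cd4 and Nkg7 alone of the 9, as the others had a mean under 1 TPM. Of that pair 1 was called higher, against 6.91% of all genes tested on that scale. Ncr1, a defining NK cell marker, was at 0 in all young libraries and had 1, 0 and 1 counts in 21-month replicates 1 to 3, too few to compare. The 4 neutrophil markers found, none with enough counts for edgeR, summed to 0.343 to 1.21 CPM in the young and to 1.18, 2.23 and 1.78 CPM in the old. S100a9 did not overlap between ages (8 counts in the young, 23 in the old), while S100a8 did (7 and 14 counts). Mpo and Retnlg were at 0 in all young libraries. In 21-month replicates 1 to 3 they had 0, 1 and 1 counts and 1, 0 and 3 counts, too few to compare. Of the 4, limma on TPM tested S100a8 and S100a9 alone, for the same reason. In this pair 1 was called higher, against 6.91% of all genes tested on that scale. The 5 stellate cell markers summed to 108 to 160 CPM in the young and to 154, 223 and 184 CPM in the old, and Dcn was called higher (edgeR adjusted p = 0.00105). The 4 bile duct markers summed to 15.8 to 24.1 CPM in the young and to 12.7, 11.9 and 13.7 CPM in the old, with no overlap, and Sox9 was called lower (edgeR adjusted p = 0.0102). Among the hepatocyte markers Alb was called higher and Apoa1 lower (edgeR adjusted p = 0.0275 and 0.0176). Siglech, the defining marker of plasmacytoid dendritic cells, the main source of type I interferon, had 3 counts over the young and 6 over the old libraries, and the 7 markers summed to 100 to 122 CPM in the young and 130 to 142 CPM in the old. In that list Tcf4 was called higher, and most of the sum was Bst2, which interferon also induces. The part of these markers in the results was not tested.

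**Figure D4:**
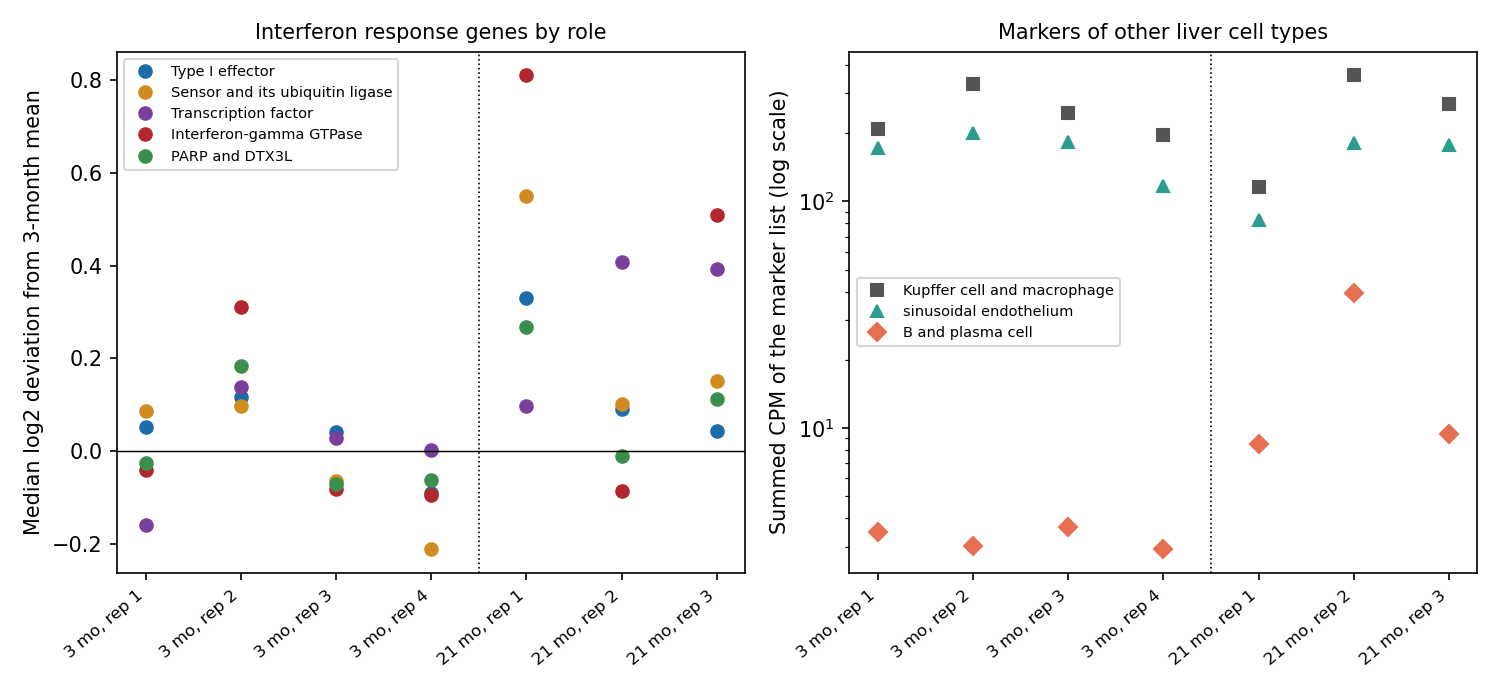
Left, median log2 deviation from the 3-month mean for each role of interferon response genes in each library. Right, summed CPM of 3 marker lists in the same libraries (log scale): 21-month replicate 1 has the highest GTPase median, 0.81, and the lowest macrophage and endothelial sums.

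The upstream pathway showed few differences. Of 19 interferon genes found in the tables, 17 had no count in any library. With none counted, levels of up to 3 counts (0.257 to 0.607 CPM, depending on the library) remain possible from counting error alone. Ifnk had 2 counts at each age, and Ifng had none in the young libraries and 2, 0 and 1 in 21-month replicates 1 to 3, which is at the floor. Of 5 receptor genes tested none passed by edgeR, DESeq2 or limma on TPM, and none had an unadjusted edgeR p under 0.05: Ifnar1 had a log2 fold change of -0.01 (interval -0.22 to 0.21), Ifnar2 of 0.06 (-0.21 to 0.32), Ifngr2 of 0.22 (-0.18 to 0.62) and Il10rb of 0.17 (-0.35 to 0.69). Ifngr1 stood at 12.8 to 14.4 CPM in the young and at 11.04 to 12.7 CPM in the old livers, with no overlap, and did not pass (log2 fold change -0.21; edgeR adjusted p = 0.362).

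Cish, a feedback inhibitor of cytokine receptors, reached 37.4 CPM in 21-month replicate 2 and 1.21 to 3.94 CPM in the other 6 libraries (edgeR adjusted p = 0.214), and passed by DESeq2 (DESeq2 adjusted p = 0.0328). In the nucleic acid sensing pathway, 1 of 20 tested genes rose and 1 fell, 5% each way, which is near the 5.47% higher and 5.86% lower among all genes tested. Ikbke, a kinase that phosphorylates Irf3 and Irf7, rose 1.58-fold, from 16.8 ± 2.29 to 26.7 ± 5.69 CPM (edgeR adjusted p = 0.0133; 0.0798 without 21-month replicate 3 and 0.231 with effective length as a covariate). Ticam1, the adaptor of Tlr3, fell 1.40-fold (edgeR adjusted p = 0.0348). The Ticam1 call ended in 9 of 16 alternatives. It ended with the replicate number as a block (edgeR adjusted p = 0.0941), with library size only (0.0649) and with effective length as a covariate (0.276). By limma on log2(TPM + 1) Ticam1 did not pass either (limma adjusted p = 0.192). The call also ended when 3-month replicate 2 or 4, or 21-month replicate 2 or 3, was left out (edgeR adjusted p = 0.104, 0.103, 0.0627 and 0.165). Irf5, a related transcription factor, passed, as lower, in the fit with the block (edgeR adjusted p = 0.131 without it and 0.0409 with it).

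Among 66 tested genes that interferons induce and that are not among the 39, 14 (21.2%, against 5.47% of all genes tested) were higher and none was lower (5.86% of all genes) by edgeR, with a median log2 fold change of 0.22. The list was chosen with earlier results of these data known, so its share is not an independent measure of interferon induced genes. None of the 66 was lower by DESeq2 or limma, and none had an unadjusted edgeR p under 0.05 in that direction. Of the 14, 4 held their call under all 16 alternative settings. Samd9l, a restriction factor, stood at 4.56, 4.98, 5.06 and 3.08 CPM at 3 months and at 13.6, 9.22 and 10.9 CPM at 21 months (edgeR adjusted p = 0.00107). Ifi27l1 went from 39.8 ± 7.33 to 82.1 ± 8.07 CPM (edgeR adjusted p = 0.000438), Ifi27l2b from 2.11 ± 0.748 to 6.19 ± 2.36 CPM (edgeR adjusted p = 0.00510) and Trim30d from 2.00 ± 0.720 to 5.43 ± 0.791 CPM (edgeR adjusted p = 0.00670). Ifi27l2a, the member of the Ifi27 family among the 39 genes, did not pass, and the difference between these relatives was not tested.

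The other 10 were Ifitm1, Ifitm2 and Ifitm3, which block viral entry, Tap1 and Nlrc5 of class I antigen presentation, Pml, Ube2l6, Uba7, Lgals9 and Ddx60. Each of these lost its call under at least 1 alternative. Ifitm3 was the steadiest of the 10, rising from 251 ± 35.8 to 362 ± 27.6 CPM (edgeR adjusted p = 0.00818; 0.0597 with effective length as a covariate). The number of the 66 called higher was 9, 8, 5 and 6 without 3-month replicates 1, 2, 3 and 4. Over all genes tested, 3.77%, 3.36%, 3.59% and 3.26% were higher in those fits. Without 21-month replicates 1, 2 and 3 the number was 13, 11 and 7, against 6.52%, 5.84% and 2.90% of all genes tested. With the replicate number as a block, 10 of the 66 were higher, against 4.98% of all genes tested. Nlrc5, Pml, Lgals9 and Ddx60 lost their calls (edgeR adjusted p = 0.0785, 0.0743, 0.0658 and 0.108), as did Uba7, above. Tgtp1 gained one (edgeR adjusted p = 0.493 without the block and 0.000713 with it). Its counts were 0, 0, 0 and 17 in the young libraries and 37, 30 and 0 in the old. Tgtp2 had counts in every library, and sharing of reads between these 2 genes was not tested.

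Levels can be compared between genes on the TPM scale, which accounts for gene length. At 3 months the most abundant of the 39 were Iigp1 at 56.3 ± 7.54, Irgm1 at 31.3 ± 3.99, Trim25 at 31.3 ± 4.90 and Irf7 at 31.0 ± 4.21 TPM (SD, n = 4); the last 3 did not differ beyond their spread. The lowest were Mx1, Ifi44, Oas2, Oas1g and Ifit2, all with means under 1 TPM. At 21 months Irf7 reached 57.9 ± 9.91 TPM, second to Iigp1 at 80.2 ± 21.9 TPM (SD, n = 3), and their spreads overlapped. Summed over the 6 transcription factors, TPM went from 104, 137, 117 and 111 in the young livers to 168, 167 and 168 in the old. The 6 GTPases summed to 110, 152, 124 and 108 TPM and then to 232, 141 and 183 TPM. The 20 effectors summed to 87.6 to 116 TPM at 3 months and to 156, 115 and 122 TPM at 21 months. On the log2(TPM + 1) scale the median of all genes tested was itself 0.10 higher at 21 months, so TPM values are raised by about that much, and 74.6% of that scale's calls over all genes were higher, against 48.3% of edgeR's.

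**Figure D5:**
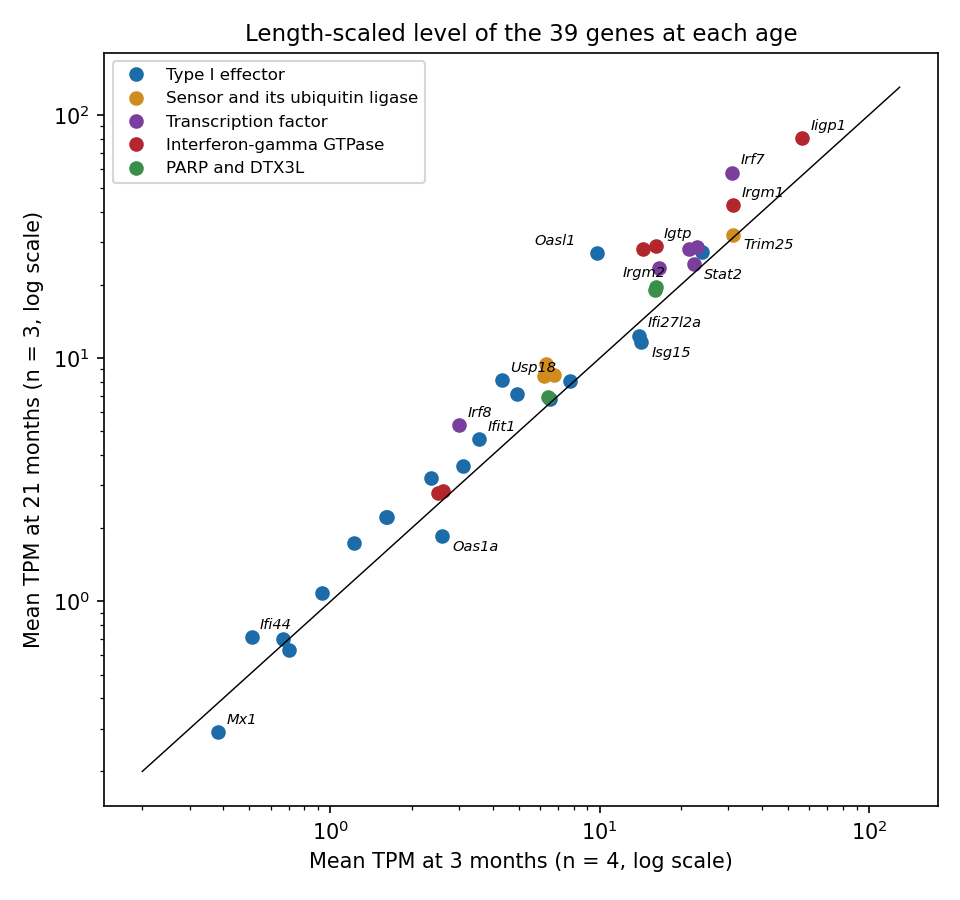
Mean TPM at 3 months (x axis) and 21 months (y axis) of the 39 genes, both on log scales, coloured by role; the line marks equal levels. Oasl1, Irgm2 and Irf7 lie well above the line, while Isg15, Ifi27l2a, Oas1a, Oas1g and Mx1 lie below it.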

How the data were processed

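Per the labels' protocols, mRNA was selected from liver RNA, and strand-specific libraries were made and PCR-amplified. No molecular identifiers are mentioned, so limits from counts cover counting error only. TopHat, RSEM, edgeR and mm9 are named, with no version or role, in the submitters' processing notes. The deposited tables give expected counts per gene (86.5% whole numbers), TPM and FPKM, and, per the file headers, gene and effective lengths; the authors' FPKM values were not used. Expected counts were rounded, filtered with filterByExpr (minimum count 10, minimum total 15), scaled by TMM and tested with edgeR 4.0.16 (robust quasi-likelihood, Benjamini-Hochberg, threshold 0.05) in R 4.3.3. An SE is the log2 fold change over the root of F, and intervals (95%) are built from it. Alternatives used DESeq2 1.42.0 and limma 3.58.1 (log2(TPM + 1) and log2(TPM + 0.1), genes with mean TPM of at least 1). The scripts were tested on simulated data. Same-numbered libraries of the 2 ages deviated together (correlations 0.107, 0.174 and 0.104 over genes); the labels do not state a pairing, and 21-month replicate 1 correlated more with 3-month replicate 4 (0.159). All 39 members were described, those past the threshold sample by sample. The members and gene lists were chosen with earlier results of these data known. The signalling genes between receptors and target genes are not reported here as a list.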

Additional observations from a re-analysis of the deposited data

Results flagged for a closer look

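In the 4 young livers, 2 of the 36 tested genes had a library far from the other 3, judged by the gap to its neighbour as a share of the range (above Dixon's 95% critical value); chance alone gives about 1 in 20. Ifit1 stood at 3.90 CPM in 3-month replicate 4 against 5.06 to 5.26 CPM in the others. Irgm1 stood at 38.8 CPM in 3-month replicate 2 against 34.2 to 35.0 CPM in the others. Groups of 3 were not examined in this way.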

How the results depend on the processing

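The calls of Oasl1, Irf7 and Irgm2 held under all 16 alternatives, with log2 fold changes of 1.20 to 1.52, 0.61 to 0.94 and 0.77 to 0.96. The number of members higher, 3, was 5 with no filter on low counts (4.09% of all genes were higher there), which added Ddx58 and Usp18. It was 3 to 8 when 1 library was left out, in fits where 2.90% to 6.52% of all genes were higher. The number lower, 0, was 0 to 1 in those fits, the 1 being Isg15 without 21-month replicate 1. The count of other interferon induced genes that were higher, 14, was 9 by DESeq2, where 5.32% of all genes were higher. It was 6 with the effective length shortfall as a covariate, where 1.59% of all genes were higher. The shortfall was 34.4 to 38.8 bases in the young libraries and 35.4, 30.9 and 21.4 in 21-month replicates 1 to 3. Shortfall and age thus cannot be fully told apart in that fit. When 1 library was left out the count was 5 to 13, and 2.90% to 6.52% of all genes were higher. These alternatives for genes outside the 39 were chosen after seeing the data. With the replicate block, 3 members were higher and 0 lower and no member's call changed. In that fit 10 of the other induced genes were higher, against 4.98% of all genes tested. Over all genes, 1274 calls became 332 with the covariate and 580 to 1642 when 1 library was left out; the cause was not tested. Several members at a few CPM had wide intervals; the parts of depth and of spread between libraries in their width were not tested.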
